A study of Mus musculus with 47 samples.

Results

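The comparison set all 4 lung samples of ragweed-treated mice against all 4 lung samples of PBS-treated mice, with the time of killing as a covariate. The samples were chosen by their labels: ragweed pollen protein or PBS, killed at 24 h or 72 h, with the replicate code 1a or 1b. These 8 samples are all the coded samples of the series, and 24 of its 47 arrays entered the comparison, 12 with ragweed and 12 with PBS RNA. Ragweed mice received ragweed pollen protein with alum on days 0 and 3 and ragweed pollen protein into the trachea on days 10 and 17, while PBS mice received PBS at each step. The labels name alum for the ragweed mice alone, so ragweed and alum cannot be told apart here, and they give no strain, sex or age. They do not say whether 1a and 1b were separate mice, so the error behind each p-value is the spread among 8 arrays of a table and may be technical rather than between animals. Total RNA from whole lung was hybridised to Affymetrix murine arrays of a first version (A) and of version 2 (B and C), whose values are linear intensities per probe set, a group of probes for 1 transcript.

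Ragweed pollen is a common airborne allergen. In sensitised mice, exposure of the airway to allergen leads to release of the type 2 cytokines interleukin 4, interleukin 5 and interleukin 13, which recruit eosinophils, turn macrophages toward an alternatively activated state, and drive goblet cells of the airway lining to make mucus. B cells mature into plasma cells, and the antibodies of the airway surface are carried across the epithelium by the polymeric immunoglobulin receptor. Many of these steps pass through STAT proteins, transcription factors that bind palindromic sites with the ends TTC and GAA. Whole lung RNA mixes all cell types, so fewer cells of a type and less RNA per cell cannot be told apart in any result given here.

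Of 25250 probe sets tested with limma, 108 (0.428%) passed an adjusted p of 0.05 (Benjamini-Hochberg over all 3 tables), 80 higher (0.317%) and 28 lower (0.111%) in ragweed lungs, and 2509 had an unadjusted p below 0.05. Leaving out any 1 of the 8 samples gave 47 to 68 called probe sets. With each gene stood for by 1 probe set, 80 of 12840 genes (0.623%) were called, 59 higher (0.46%) and 21 lower (0.164%). The log2 difference was at least 1 in size for 44 of the genes called higher and 5 of those called lower. Its median over all genes was -0.0092, and it was positive for 48.62% of them. All 4 ragweed values lay above all 4 PBS values for 52 of the 59 higher genes and below them for 20 of the 21 lower genes, against 2.49% and 2.47% of all genes tested. The calls rest on the same values, which favours such separation, so these counts are a description. Surfactant gene Sftpc and club cell gene Scgb1a1, which define lung epithelium, ranked among the brightest probe sets of every A array, with intensities of 50946 to 71315 for Sftpc and 30595 to 80239 for Scgb1a1.

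Every PBS array of A was deposited at a lower scale (trimmed mean 224.7 to 376.5) than every ragweed array (800). Each A array was rescaled to a trimmed mean of 800 before the fit, which removes a constant factor between arrays. Any other difference in the submitters' processing of A cannot be told apart from the treatment and was not tested. On C the ratio of the 3' to the 5' actin control, a sign of RNA quality, was 0.861 to 1.08 in PBS and 1.11 to 1.60 in ragweed samples, which did not overlap; its part in the results from C was not tested. On A the ratio was 0.798 to 0.968 in PBS and 0.880 to 0.947 in ragweed samples. On B it was 0.465 to 0.918 in PBS and 0.831 to 1.10 in ragweed samples, with 3 of 4 ragweed values above every PBS value; its part in the results from B (Retnla, Il33, Clec10a, Ccl24, Slc5a1 and Fxyd4 among them) was not tested. With A and B alone, 105 of 16086 probe sets were called, 80 higher and 25 lower.

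The largest rise was that of Chil3 (also Ym1), a secreted chitinase-like protein of macrophages and a standard mark of their alternative activation. Its intensity in PBS samples was 1704 and 1383 at 24 h and 3042 and 2710 at 72 h, and in ragweed samples 43673 and 49622 at 24 h and 52066 and 50946 at 72 h. No ragweed value came near a PBS value. The log2 difference was 4.54 (SE 0.15, n = 4 against 4), a 23.3-fold rise with an adjusted p of 3.97e-07. In ragweed samples Chil3 ranked from 5 to 10 among the probe sets of A, and quantile normalization sets such values by rank; scaling alone gave 4.52.

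Retnla (also Fizz1), a secreted protein of alternatively activated macrophages and airway epithelium, was at 715 and 570 in PBS samples at 24 h and 1746 and 1240 at 72 h. The ragweed values were 9601 and 7199 at 24 h and 11151 and 8040 at 72 h. Again the groups were fully apart, with a 9.16-fold rise (log2 3.19, SE 0.21, adjusted p = 3.98e-06). Arg1, which splits arginine into ornithine and urea, was at the floor of 292 in all 4 PBS samples and at 1717, 1407, 718 and 609 in ragweed samples, at least 3.48-fold higher (adjusted p = 0.0162). The rise of Arg1 depends on the floor, the intensity to which lower values were raised: its log2 difference was 2.89 with a floor at the 20th percentile and 0.74 (adjusted p = 0.23) with one at the 60th, and its call was lost in 7 of 8 fits without 1 sample. Clec10a, a sugar-binding receptor, rose 2.18-fold (adjusted p = 0.016), a rise that the first-version B arrays gave as 0.35 on the log2 scale (adjusted p = 0.559) and that lost its call in 6 of 8 fits without 1 sample.

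These 4 genes were those called among 12 tested products of alternatively activated macrophages, 33.3% against 0.46% of all genes called higher. Their list had a median log2 difference of 0.75, and 11 of its 12 genes had a positive difference, against 48.62% of all genes. Members of this and the other lists were chosen with earlier results of these data known, so the shares called are a description. For every list, the shares over all genes are 0.46% called higher and 0.164% called lower, with a median of -0.0092. The mannose receptor gene Mrc1 (log2 1.27) and the scavenger receptor gene Cd163 (0.82) had groups that did not overlap but were not called. The secreted chitinase-like protein gene Chil1, outside this list and named after its values were seen, rose 1.46 on the log2 scale (SE 0.11, adjusted p = 0.000126). The list of acute phase and antimicrobial genes held it under the symbol Chi3l1, which was not matched, so the counts of that list leave it out.

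Chil3, Retnla and Il33 are shown here by promoter, since the first 2 lead the macrophage genes and Il33 was the called gene among type 2 cytokines and their receptors. The 300 bases run from 250 before to 50 after the start in RefSeq's annotation of GRCm38.p6, and capitals mark the match to TTCNNNGAA or TTCNNNNGAA, the general STAT spacing and the spacing preferred by STAT6. Both patterns read the same on either strand, and each printed window holds 1 match. Among other large rises, Bpifb1 has a match in 1 window, while Ccl8, Mmp12, Fcgbp, Ccl9, Reg3g, Slc5a1, Fxyd4 and Agr2 have none. A second Il33 start in the table, with the window chr19:29945540-29945839, has no match.
Chil3, chr3:106167515-106167814, minus strand: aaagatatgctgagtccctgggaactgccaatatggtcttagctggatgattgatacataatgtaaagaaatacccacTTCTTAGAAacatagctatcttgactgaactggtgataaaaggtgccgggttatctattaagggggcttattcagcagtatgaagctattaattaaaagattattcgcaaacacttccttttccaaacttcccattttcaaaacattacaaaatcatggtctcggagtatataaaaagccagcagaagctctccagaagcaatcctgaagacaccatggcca
Retnla, chr16:48842359-48842658, plus strand: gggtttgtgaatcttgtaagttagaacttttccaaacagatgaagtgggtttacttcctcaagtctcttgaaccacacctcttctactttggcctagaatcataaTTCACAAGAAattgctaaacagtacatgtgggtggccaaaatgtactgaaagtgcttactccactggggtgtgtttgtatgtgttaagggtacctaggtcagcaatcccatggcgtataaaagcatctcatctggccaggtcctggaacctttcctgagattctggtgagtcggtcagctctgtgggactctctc
Il33, chr19:29924863-29925162, plus strand: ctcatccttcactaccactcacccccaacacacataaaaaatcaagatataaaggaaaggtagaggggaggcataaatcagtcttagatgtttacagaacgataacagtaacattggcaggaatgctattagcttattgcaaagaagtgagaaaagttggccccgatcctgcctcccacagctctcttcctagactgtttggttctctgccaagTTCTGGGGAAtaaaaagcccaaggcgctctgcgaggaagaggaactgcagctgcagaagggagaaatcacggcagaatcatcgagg
A gene with several starts was counted where any window held the pattern. The match began 172 bases before the start in Chil3, 145 before it in Retnla and 36 before it in Il33. TTCNNNNGAA was present for 4 of 39 genes called higher that had a promoter entry (10.3%: Capn9, Il33, Ms4a7, Retnla), for 0 of 17 called lower, and for 6.65% of 10226 tested genes and 8.01% of all 27025 genes with an entry. TTCNNNGAA was present for 4 of the 39 (10.3%: Ahcyl2, Bpifb1, Chil3, Pigr), for 1 of the 17 (5.88%: Bach2), and for 8.27% of tested and 9.55% of all genes. A match is a run of letters and says nothing on binding in these lungs.

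**Figure D1:**
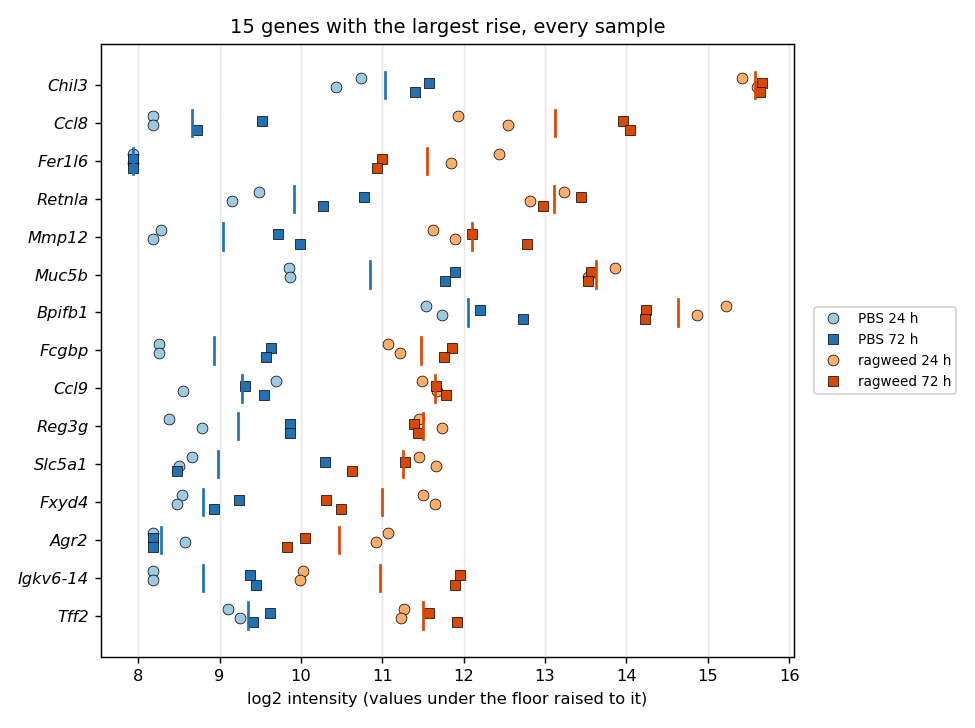
Log2 intensity (horizontal axis; values under the floor of a table raised to it) of the 15 genes with the largest rise, in each of the 8 samples; circles are 24 h, squares 72 h, blue PBS and orange ragweed, and bars are the means of 4 samples. The genes were chosen from called genes whose groups did not overlap, so every ragweed value lies to the right of every PBS value by choice. Both PBS values at 72 h lie to the right of both at 24 h for 11 of the 15 genes, all but Fer1l6, Ccl9, Slc5a1 and Agr2.

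CC chemokines, secreted proteins that draw leukocytes into tissue, were called for 3 of 12 tested genes (25%), with a median log2 difference of 0.55. Of all genes tested, 0.46% were called higher, and their median was -0.0092. Ccl8, which in mice attracts type 2 T cells through the receptor Ccr8, was at the floor of 292 in both PBS samples at 24 h and at 737 and 423 at 72 h. In ragweed samples it was at 3897 and 5981 at 24 h and at 15972 and 16832 at 72 h. The groups were far apart at each time (22.1-fold, log2 4.46, SE 0.22, adjusted p = 7.90e-06). Ccl9 rose from 375 to 825 in PBS samples to 2880 to 3511 in ragweed samples, 5.18-fold (adjusted p = 0.000476). The eosinophil attractant Ccl24 was at the floor of 356 in 3 PBS samples and at 524 in the fourth, against 1633 and 2061 in ragweed samples at 24 h and 1057 and 995 at 72 h (3.49-fold against the floored PBS values, adjusted p = 0.021). Its log2 difference of 1.80 was 0.996 and not called (adjusted p = 0.0708) with a floor at the 60th percentile, and its call was lost in 7 of 8 fits without 1 sample.

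Ccl11, the other eotaxin, had ragweed values of 1488 and 1830 at 24 h and 712 and 454 at 72 h against 292 to 360 in PBS samples. Its groups did not overlap, but its log2 difference of 1.65 (SE 0.33) over both times did not pass (adjusted p = 0.0836). By limma at single times it was called at 24 h (log2 2.49, adjusted p = 0.0199) and not at 72 h (0.81, adjusted p = 0.421). On version 2 A it was called at 72 h (1.90, adjusted p = 0.0066). Ccl6 had a log2 difference of 0.51 on A, not called, while a second probe set on C, of a kind that can share sequence with other genes, rose by 1.37 (adjusted p = 0.00942). Among CXC chemokines 0 of 8 were called by limma, with 2 higher and 2 lower at an unadjusted p below 0.05. Among chemokine receptors 0 of 8 were called, with 1 higher and 0 lower at an unadjusted p below 0.05.

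Il33, an alarm cytokine of alveolar type 2 and other barrier cells, was the called gene of 13 tested type 2 cytokines, receptors and signalling genes (7.69%). It was at 6129, 4865, 5873 and 4408 in PBS samples and at 12849 and 13290 at 24 h and 7343 and 8398 at 72 h in ragweed samples. The groups did not overlap (1.92-fold, SE 0.16 on the log2 scale, adjusted p = 0.0184), and the first-version arrays gave 1.06 on the log2 scale (adjusted p = 0.00151). The call was lost in 6 of 8 fits without 1 sample. Il4, Il13, the decoy receptor Il13ra2 and the chemokine Ccl17 were above the floor on 0 of 8 arrays, so the floor is a bound for them. Il5 lay at or near the floor in all samples (292 to 336), and the shared receptor chain Il4ra was at 1780 to 2032 in PBS and 1962 to 2266 in ragweed samples (log2 0.19, adjusted p = 0.563). The epithelial alarmin gene Tslp was at 245 to 748 in PBS and 245 to 999 in ragweed samples.

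Of 20 tested genes of mucus and goblet cells, 7 rose (35%), with a median log2 difference of 0.33. Among all genes tested, 0.46% were called higher, and the median was -0.0092. Muc5b, a gel-forming mucin of the airways, was at 925 and 934 in PBS samples at 24 h and 3799 and 3500 at 72 h. In ragweed samples it was at 14885 and 11757 at 24 h and 12138 and 11850 at 72 h. The ragweed values were alike at both times while the PBS values were not, and the rise was 6.84-fold over the times (log2 2.77, SE 0.32, adjusted p = 0.000951), 14.2-fold at 24 h and 3.29-fold at 72 h. Bpifb1, a secreted airway protein stored with mucins, rose from 2975 to 6788 in PBS samples to 19237 to 38206 in ragweed samples (6.02-fold, adjusted p = 0.000339). Muc5b and Bpifb1 were read on C, where the actin ratio differed between the treatments. Their probe sets, like those of Agr2, Ighm, Fcgr2b, Mmp12, Il33 and Igf2, are of a kind that can share sequence with other genes. Mmp12, Il33, Fxyd4, C1qc and Cytl1 each had 2 tested probe sets of the same sign, with 1 called. Ctsb, H2-Aa and Myl7 each had 3 of the same sign, with 1 called. Suffixes counted as marking possible shared sequence were on 37.96% of called and 21.84% of tested probe sets.

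Fcgbp, a mucus protein bound to mucins, was at 306, 305, 796 and 762 in PBS samples and at 2157, 2382, 3708 and 3475 in ragweed samples (5.84-fold, adjusted p = 3.85e-05). Agr2, an endoplasmic reticulum protein needed for mucin folding, was at the floor in 3 PBS samples and at 381 in the fourth, against 2148, 1940, 1060 and 914 in ragweed samples (4.55-fold against the floored PBS values, adjusted p = 0.00162; log2 2.18, and 1.23 to 2.70 with other floors). Tff2, a trefoil peptide of mucous cells, rose from 548 to 789 to 2410 to 3883 (4.45-fold, adjusted p = 2.90e-05). Each of these genes was separated between the groups and kept its call in all 8 fits without 1 sample. The lectin Itln1 (log2 0.98, adjusted p = 0.0297, call lost in 7 of 8 such fits) and the actin-severing protein gene Scin (log2 1.68, adjusted p = 0.0102) completed the list. Muc5ac was above the floor on 0 of 8 arrays. The goblet cell gene Clca1 lay between 292 and 698 in all samples (log2 0.30, adjusted p = 0.734). Foxa3, a goblet cell transcription factor, had a log2 difference of 0.12 by the probe set that stood for it and 1.05 (adjusted p = 0.0263) by another on C that may share sequence.

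Reg3g, an antibacterial lectin of epithelia, rose from 333 and 441 (24 h) and 930 and 935 (72 h) in PBS samples to 2803, 3419, 2678 and 2780 in ragweed samples (4.86-fold, adjusted p = 0.00343). Serpina3n, an acute phase protease inhibitor, rose 2.04-fold (adjusted p = 0.00942), a call lost without PBS 72 h 1a or without ragweed 72 h 1b. They were the called genes of 16 acute phase and antimicrobial genes matched by symbol (12.5%, against 0.46% of all genes called higher). This count leaves out Chil1. Of 18 genes of epithelial ion and solute transport 2 rose (11.1%, against 0.46% of all genes), while the list's median was -0.067. The sodium-glucose transporter Slc5a1 was at 356 to 1261 in PBS and 1583 to 3238 in ragweed samples (log2 2.27, adjusted p = 0.0126), but at 0.74 (adjusted p = 0.543) on the first-version arrays, and its call was lost in 6 of 8 fits without 1 sample. Fxyd4, a regulator of the sodium pump, was at 356 to 602 in PBS samples, at 2909 and 3213 in ragweed samples at 24 h and at 1272 and 1446 at 72 h (log2 2.19, adjusted p = 0.00589), with the call lost without either ragweed sample of 24 h. Fer1l6, a ferlin family membrane protein gene read on C, was at the floor of 245 in all PBS samples. It was at 5523, 3690, 2048 and 1952 in ragweed samples, at least 12.3-fold higher (adjusted p = 0.000225). The floor left its PBS values with no spread, which narrows the error behind this p-value. The log2 difference of Fer1l6, 3.62, ranged from 2.42 to 4.94 with other processing settings.

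**Figure D2:**
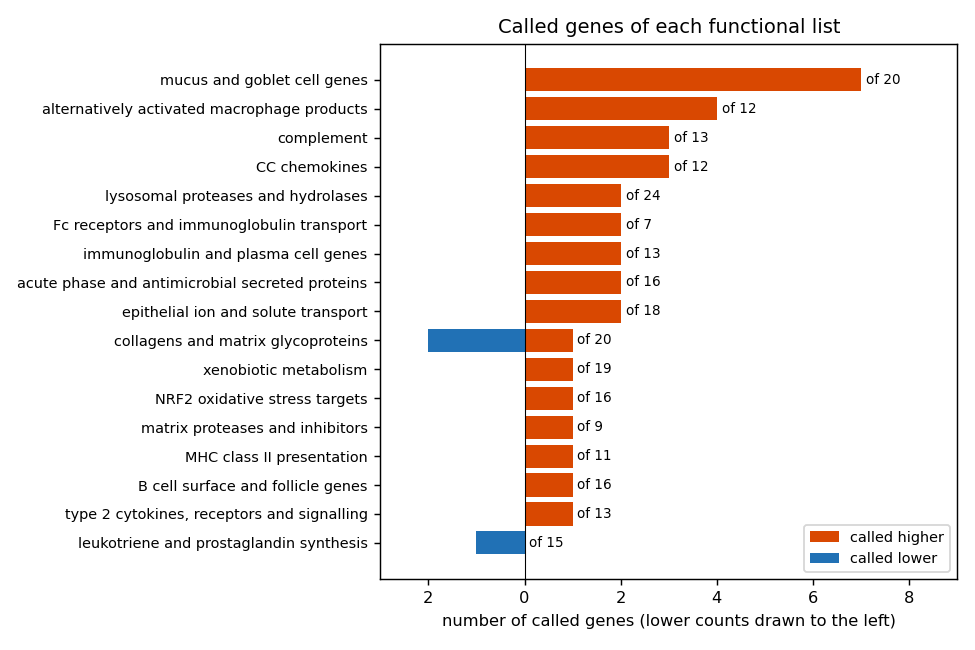
Number of genes called higher (orange, right) and lower (blue, left) in each functional list with at least 1 called gene, with the number of genes tested beside each bar. Mucus and goblet cell genes lead with 7 of 20, followed by products of alternatively activated macrophages with 4 of 12. Of all genes tested, 0.46% were called higher and 0.164% lower.

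Antibody genes rose from PBS levels that themselves differed between the times. Ighm, the IgM heavy chain constant region, was at 4240 and 4245 in PBS samples at 24 h and 9835 and 10113 at 72 h, and at 14150, 13020, 37862 and 29833 in ragweed samples. The ragweed samples were higher at each time, 3.20-fold at 24 h and 3.37-fold at 72 h (log2 1.72, SE 0.088, adjusted p = 8.67e-06). The other probe sets of Ighm were less even: of 12 tested, 11 had a positive difference and 1 was called. Another probe set of Ighm was at the floor in all samples at 24 h and at 690 and 707 in PBS and 7292 and 7592 in ragweed samples at 72 h, and its change between the times was called (log2 3.41, adjusted p = 0.00868). Jchain, which joins IgA and IgM into polymers, was at the floor in both PBS samples at 24 h and at 1139 and 1174 at 72 h, and at 1241, 1209, 3762 and 4184 in ragweed samples (3.80-fold, adjusted p = 8.16e-05). Without the time covariate the calls of Ighm, Jchain and Igkv6-14 were lost.

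Of 29 tested immunoglobulin gene segments, a group set up from the symbols, 8 were called higher, 24 had a positive difference, and the median was 0.95. Over all genes tested, 0.46% were called higher and 48.62% had a positive difference. The kappa variable segment Igkv6-14 was at 292, 292, 661 and 699 in PBS and at 1040, 1020, 3965 and 3803 in ragweed samples (4.49-fold, adjusted p = 0.00027), while its other probe set had the opposite sign. Probe sets for such segments share sequence with related segments, so values of single segments are uncertain. Mzb1, a plasma cell chaperone, was at 356 to 445 in PBS samples, at 356 and 873 in ragweed samples at 24 h and at 3356 and 3467 at 72 h. Its log2 difference of 1.80 over both times did not pass (adjusted p = 0.118). By limma at single times it was called at 72 h (2.96, adjusted p = 0.0185) and not at 24 h (0.65, adjusted p = 0.763). Summed over 7 tested plasma cell markers, intensities were 4696 to 6345 in PBS and 5890 to 12580 in ragweed samples, and Jchain alone was called. Of 16 B cell surface and follicle genes 1 rose, the tetraspanin Cd37 (log2 1.26, adjusted p = 0.0232, call lost in 7 of 8 fits without 1 sample), and the summed B cell markers overlapped (3978 to 5750 against 3938 to 5903).

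Pigr, the receptor that carries polymeric antibodies across epithelium, was at 2108, 1856, 3035 and 3046 in PBS samples and at 6660, 7006, 8240 and 7798 in ragweed samples. The groups were apart and the spread within each was small beside the 3.02-fold rise (log2 1.59, SE 0.098, adjusted p = 2.90e-05). The inhibitory IgG receptor Fcgr2b was at the floor in all PBS samples and at 748, 934, 665 and 842 in ragweed samples, at least 2.71-fold higher (adjusted p = 0.00617), but with a floor at the 60th percentile its log2 difference was 0.38 and not called. These were 2 of 7 genes of Fc receptors and antibody transport (28.6%, against 0.46% of all genes called higher).

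The 3 chains of C1q, which begins the classical complement pathway and is made by tissue macrophages, rose together. No other of the 13 complement genes tested was called, so 23.1% of them were called, against 0.46% of all genes called higher. C1qa was at 1476, 1667, 2190 and 1998 in PBS and at 2765, 2926, 5683 and 5867 in ragweed samples (2.24-fold, adjusted p = 0.00229). C1qc rose 1.73-fold (adjusted p = 0.00942), a call lost without either PBS 72 h sample or without ragweed 72 h 1b. C1qb was at 292 to 532 in PBS and 930 to 2450 in ragweed samples (3.48-fold, adjusted p = 0.0341), and its call was lost in all 8 fits without 1 sample. Complement component gene Hc, outside that list and named after its values were seen, rose by 1.12 on the log2 scale (SE 0.086, adjusted p = 0.000169).

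Cathepsin S, which trims the invariant chain for antigen presentation, had Ctss intensities of 5247, 4939, 6466 and 5821 in PBS and 9608, 9706, 13846 and 15034 in ragweed samples (2.11-fold, adjusted p = 0.00026). Ctsb, a general lysosomal protease, rose from 5323 to 6108 to 8968 to 10113 (1.72-fold, adjusted p = 0.00124). They were the called genes of 24 lysosomal genes (8.33%), whose median was 0.25. Of these 24, 22 had a positive difference (48.62% over all genes), 18 of them at both times. Mmp12, the macrophage elastase, was at 310, 292, 841 and 1017 in PBS samples and at 3145, 3789, 4402 and 7024 in ragweed samples. This was an 8.31-fold rise (adjusted p = 8.16e-05) and the only call among 9 matrix proteases and inhibitors. The second probe set of Mmp12 had the same sign but was not called. The class II chain H2-Aa rose 1.51-fold (adjusted p = 0.016), 1 of 11 class II genes, whose median was 0.45; its groups overlapped, and the call was lost in 6 of 8 fits without 1 sample and with A scaled alone. Class I presentation had 0 of 12 genes called by limma and 7 higher at an unadjusted p below 0.05.

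Macrophage and monocyte markers were called for 4 of 14 genes (28.6%, against 0.46% of all genes called higher), with a median of 0.61. They were the 3 C1q chains and Ms4a7 (log2 1.16, adjusted p = 0.0386, from C, lost in all 8 fits without 1 sample). At an unadjusted p below 0.05, 11 of the 14 were higher and 1 lower, and 6 had every ragweed value above every PBS value. The macrophage lysozyme gene Lyz2 had a difference of -0.55, with every ragweed value below every PBS value, and was not called. Summed over the 14 markers, intensities overlapped, at 54425 to 65351 in PBS and 49661 to 70959 in ragweed samples. The defining eosinophil granule genes Prg2 and Epx and the mast cell gene Cpa3 were above the floor on 0 of 8 arrays, and the 3 eosinophil markers tested summed to 828 to 1384 in PBS and 1012 to 1294 in ragweed samples. The 9 T cell markers summed to 5122 to 6106 in PBS and to 4456 to 4808 in ragweed samples, with 0 called by limma and 2 lower at an unadjusted p below 0.05. The separation of these sums was not shared across the list, whose median was 0.0068 with 5 of 9 differences positive and the lowest, that of Cd3d on C, at -1.10. Neutrophil markers summed to 7295 to 9598 in PBS and 7797 to 10681 in ragweed samples.

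**Figure D3:**
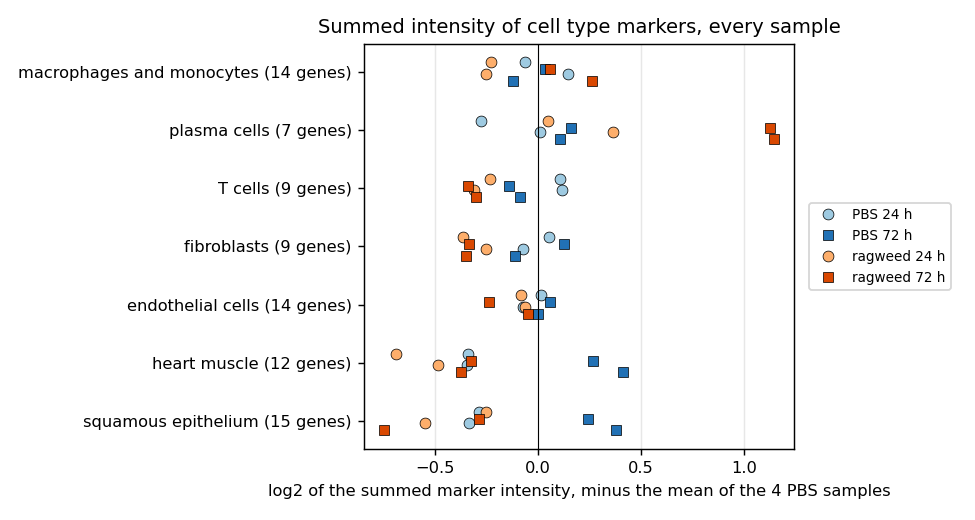
Log2 of the summed intensity of cell type markers minus the mean of the 4 PBS samples (horizontal axis), for 7 marker lists in each of the 8 samples, with symbols as in the plot of the largest rises. T cell sums (median difference of the list 0.0068) and fibroblast sums of the ragweed samples lie below all PBS sums, plasma cell sums are highest in the ragweed samples at 72 h, and heart muscle and squamous sums are highest in the PBS samples at 72 h.

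The genes that fell had smaller differences. Igf2, a growth factor of the insulin family, was at 1463, 1031, 1558 and 1222 in PBS samples and at 701, 443, 320 and 461 in ragweed samples. No values overlapped, and the fall was by 1.49 on the log2 scale (SE 0.25, adjusted p = 0.0358). Wdr5, a subunit of histone methyltransferase complexes, fell by 1.44 (adjusted p = 0.021). Their calls were lost in 7 and 6 of 8 fits without 1 sample. Tns2, a focal adhesion protein gene, fell by 1.03 (adjusted p = 0.0161), and Cdc42ep4, an effector of the GTPase Cdc42, fell from 1505 to 1958 to 861 to 984 (by 0.94 on the log2 scale, adjusted p = 0.00942). The call of Cdc42ep4 was lost without PBS 24 h 1b alone, and that of Tns2 in 5 of 8 fits. Ctnna2, a neural alpha catenin, fell by 0.90 and was at the floor in 3 ragweed samples (adjusted p = 0.0336, lost in all 8 fits).

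From C, where the actin ratio differed, Bach2, Fam217a, Cytl1 and Cavin2 fell. Bach2, a transcriptional repressor of lymphocytes, fell by 1.13 (adjusted p = 0.0455), but the first-version C arrays gave -0.29 (adjusted p = 0.886). Cavin2, a caveolar coat protein abundant in lung endothelium, was at 16393, 20976, 24214 and 23433 in PBS and at 10585, 10104, 15600 and 9070 in ragweed samples (a fall by 0.92, adjusted p = 0.0387). Cytl1, a secreted cytokine-like protein gene, fell by 0.98 (adjusted p = 0.0294) and Fam217a by 0.98 (adjusted p = 0.0486). The probe sets of Cavin2, Cytl1 and Fam217a may share sequence with other genes. The calls of Bach2, Fam217a, Cytl1 and Cavin2 were each lost in at least 7 of 8 fits without 1 sample.

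Hpgd, which inactivates prostaglandins, was the called gene of 15 in leukotriene and prostaglandin synthesis (6.67%). The list's median was 0.25 and 13 of its 15 differences were positive. At an unadjusted p below 0.05 with limma, 3 were higher and 1, Hpgd, was lower. Hpgd was at 2667, 3597, 3795 and 3690 in PBS samples and at 1725, 1683, 2036 and 2129 in ragweed samples. The groups did not overlap, and the fall of 0.85 on the log2 scale (SE 0.11, adjusted p = 0.00589) kept its call in all 8 fits without 1 sample. Sparc, a matrix glycoprotein, fell by 0.70 (adjusted p = 0.0116, lost in 5 of 8 fits) and Col1a1, a chain of type I collagen, fell by 0.51 (adjusted p = 0.0336, lost in 7 of 8), while Col6a1, a chain of type VI collagen, rose by 0.49 (adjusted p = 0.0486, lost in all 8). A second probe set of Col1a1 had the opposite sign. These were the 3 calls among 20 collagens and matrix glycoproteins (15%). Of 9 fibroblast markers 0 had a positive difference, against 48.62% of all genes. Their sums were 66780 to 78786 in PBS and 56013 to 60542 in ragweed samples, which did not overlap. The part of this in the fall of Col1a1 was not tested. Cdh5, the cadherin of endothelial junctions, fell by 0.55 (adjusted p = 0.0278, lost in all 8 fits) as the single call of 14 endothelial markers, whose sums were 58382 to 63852 in PBS and 52044 to 59364 in ragweed samples.

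Myl7, the atrial myosin light chain, was at 1505, 1712, 2926 and 3428 in PBS samples and at 704, 759, 1141 and 1440 in ragweed samples. The groups did not overlap at either time (a fall by 1.22 on the log2 scale, SE 0.13, adjusted p = 0.00171), with a call that was lost without the time covariate. Of 12 heart muscle markers 1 was called, 8 had a negative difference at both times and the median was -0.36. Their sums were 15569 and 15622 in PBS samples at 24 h, 23780 and 26277 in PBS samples at 72 h, and 12271 to 15764 in ragweed samples. The part of heart tissue in the samples was not tested.

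**Figure D4:**
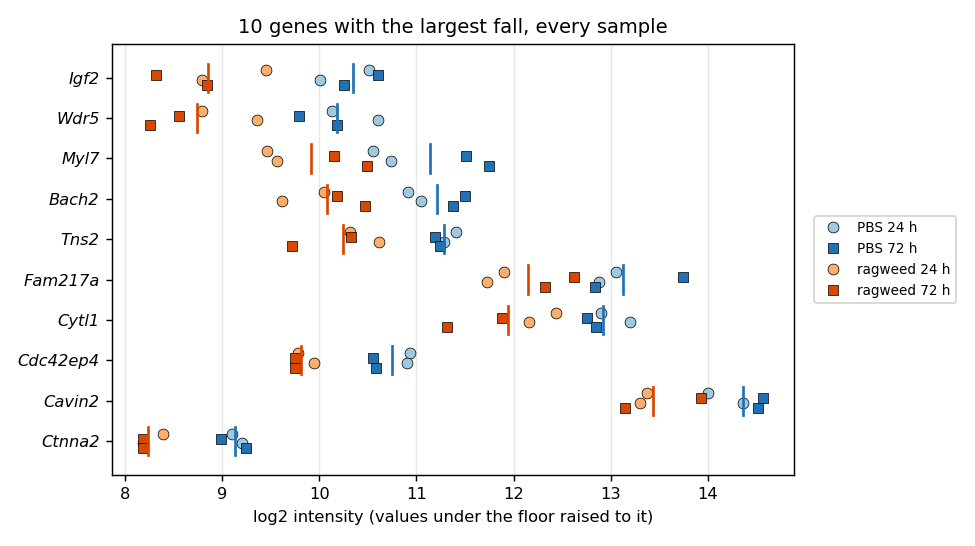
Log2 intensity (horizontal axis; values under the floor of a table raised to it) of the 10 genes with the largest fall, with symbols as in the plot of the largest rises. The genes were chosen from called genes whose groups did not overlap, so ragweed values lie to the left of all PBS values by choice. The distances are shorter than among the rises, from 0.90 to 1.49 between the means.

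Each of the 80 and 28 called probe sets had the same sign at both times, which the averaging over times favours. Among the genes called higher, 33 had the larger difference at 24 h and 26 at 72 h. Muc5b, Fxyd4 and Reg3g were among the first, and Ccl8, Igkv6-14 and C1qb among the second. Of the 59, 33 were also called at 24 h alone, 30 at 72 h alone and 26 at both, while 22 passed at neither time alone. Of the 21 genes called lower, 14 had the larger fall at 72 h, 7 were called at 72 h alone and 0 at 24 h alone, where all 21 had an unadjusted p below 0.05 with limma. The times and the averaged comparison share samples, so these counts are a description.

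The difference between the responses at 72 h and 24 h was itself called for 9 probe sets (0.0356%) and 4 genes (0.0312%). Acta1, skeletal muscle actin, was at 2406 and 2003 in PBS and 6182 and 7559 in ragweed samples at 24 h, and at 8395 and 8395 in PBS and 5191 and 5323 in ragweed samples at 72 h. Cyp2f2, a club cell cytochrome, was at 6351 and 7065 against 10904 and 10155 at 24 h and at 21306 and 21531 against 12420 and 12024 at 72 h. Its difference at 72 h was -0.81 on the log2 scale there and 0.20 (SE 0.15, adjusted p = 0.538) on version 2 A, so the lower ragweed level was not seen on the second version. Krt4, a keratin of stratified epithelium, was at 8121 and 6703 against 8497 and 9479 at 24 h and at 24103 and 25342 against 9924 and 8073 at 72 h. In these genes the PBS samples changed more between the times than the ragweed samples did. Fam25c was at 1637 and 2016 in PBS and 3603 and 3715 in ragweed samples at 24 h, and at 5729 and 4281 in PBS and 1318 and 1501 in ragweed samples at 72 h. Both treatments changed in Fam25c, in opposite directions. Without 1 sample limma called 0 to 5 probe sets, with 1735 to 2451 at an unadjusted p below 0.05.

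**Figure D5:**
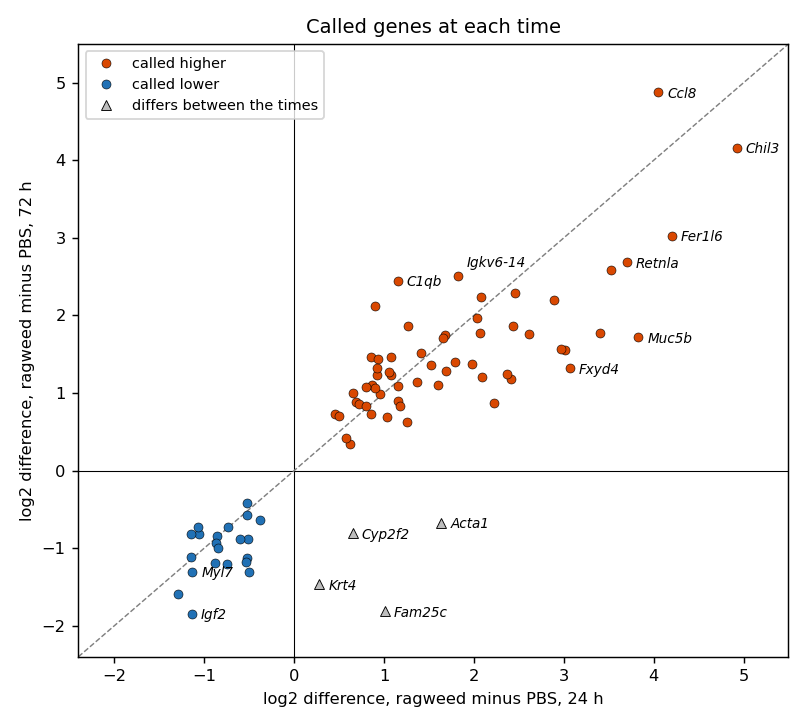
Log2 difference between ragweed and PBS at 24 h (horizontal axis) and at 72 h (vertical axis) for the 59 genes called higher, the 21 called lower and the 4 genes whose difference changed between the times; the dashed line marks equal differences. Called genes lie in the 2 quadrants of equal sign, with Muc5b and Fxyd4 below the line and Ccl8, Igkv6-14 and C1qb above it.

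Version 2 A arrays, all deposited at 1 scale, gave the response at 72 h again for 35 of the 36 called named genes of A. The sign was the same for 33 of 35, and 21 passed limma with Benjamini-Hochberg adjustment over 8044 probe sets. Ccl8 had a log2 difference of 5.66 (adjusted p = 0.00148) there and Chil3 3.18 (adjusted p = 0.00148), against 4.88 and 4.16 at 72 h on the first version. Cd37 (-0.0085, adjusted p = 0.988) and Col1a1 (0.17, adjusted p = 0.701) had the other sign, and Reg3g (0.29, adjusted p = 0.504) and Me1 (0.17, adjusted p = 0.668) were not called. Serpina3n, Igkv6-14, Jchain and H2-Aa also rose without a call (adjusted p = 0.083 to 0.171). Among the falls, Hpgd (-0.78, adjusted p = 0.0482) and Myl7 (-2.01, adjusted p = 0.0216) were called. Those of Igf2, Wdr5, Tns2, Cdc42ep4, Sparc and Cdh5 kept their sign but were not called (adjusted p = 0.112 to 0.379). The labels do not say whether both versions received the same RNA, so this is not an independent repeat.

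Gsto1, a glutathione transferase of the omega class, rose 2.23-fold (adjusted p = 0.000334) as the called gene of 19 in xenobiotic metabolism (5.26%). Me1, which makes cytosolic NADPH, rose 1.76-fold as the called gene of 16 NRF2 targets (6.25%, adjusted p = 0.0192, lost in 6 of 8 fits without 1 sample). The other probe set of Me1 had the opposite sign. The xenobiotic list had a median of -0.096, with 3 genes higher and 5 lower at an unadjusted p below 0.05 with limma. The NRF2 list had a median of -0.049, with 2 higher and 4 lower. Interferon-induced genes (0 of 20 called by limma, 3 higher and 0 lower at an unadjusted p below 0.05), cell cycle genes (0 of 27, 3 higher and 1 lower) and respiratory chain genes (0 of 30, 2 higher and 0 lower) gave no calls. Leukocyte adhesion genes (0 of 17, 3 higher and 1 lower), endoplasmic reticulum stress genes (0 of 20, 2 higher and 1 lower), heat shock proteins (0 of 16, 0 higher and 3 lower), immediate early genes (0 of 18, 0 higher and 1 lower), tight junction genes (0 of 16, 1 higher and 3 lower) and lipid synthesis genes (0 of 18, 0 higher and 3 lower) gave none either.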

How the data were processed

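Probe set intensities, deposited by the authors on a linear scale, were used as given for version 2 B and C, whose arrays share 1 trimmed mean; their software is not stated in the labels used. Each array of first-version A was rescaled (trimmed mean 800, 2% off each end), then the table was quantile normalized, keeping the 9977 probe sets also on version 2 and leaving out control probe sets. Values under the 40th percentile of a table (291.6, 356.4 and 244.7 for A, B and C) were raised to it, and probe sets above it on at least 2 arrays were tested, on the log2 scale. Differences and SEs are from limma 3.58.1 (R 4.3.3), with time as covariate, eBayes with trend and Benjamini-Hochberg adjustment over the 3 tables. Arrays carry no read depth; their number limits precision, and the median SE was 0.18, 0.23 and 0.34 on A, B and C. A ragweed 24 h array with no replicate code was 1 over 2.627 times the 1a array at every probe set and was left out. Replicate codes did not pair samples (correlations of deviations -0.046 to 0.035 over 6 pairs). Symbols came from the platform annotation, 1 for 27022 of 34256 probe sets, several for 674 and none for 6560, and 26937 were matched by gene ID to RefSeq. A gene was stood for by its probe set on A, then B, then C, then the brightest. Named genes are the 15 largest rises and the 10 largest falls among called genes whose groups did not overlap. They also include called members of the gene lists, genes fixed by symbol and genes that differ between times. Members and lists were chosen with earlier results of these data known. The fit was tested on simulated data.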

Additional observations from a re-analysis of the deposited data

Results flagged for a closer look

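Among 105 groups of 4 samples with all values above the floor, 5 had a sample far from the others, where chance gives about 1 in 20. Muc5b was at 14885 in ragweed 24 h 1a against 11758 to 12138 in the other ragweed samples. C1qc was at 1876 in PBS 24 h 1b against 2426 to 2461 in the other PBS samples, and Hpgd at 2667 in PBS 24 h 1a against 3597 to 3795. Cdc42ep4 was at 984 in ragweed 24 h 1b against 861 to 880. Scgb1a1 was at 80238 in that sample against 71314 in each of the others; these are the brightest values of A, which quantile normalization sets by rank.

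In 4 genes the difference between ragweed and PBS changed between the times, by a limma interaction test. The difference at 72 h minus that at 24 h was -2.83 for Fam25c (adjusted p = 0.00556), -2.31 for Acta1 (0.00556), -1.75 for Krt4 (0.035) and -1.46 for Cyp2f2 (0.00868), on the log2 scale. Skeletal muscle markers summed to 13137 and 15010 in PBS samples at 24 h and to 27273 and 27322 at 72 h, squamous epithelium markers to 61720 and 63661 and to 91805 and 100885, and club cell markers to 62276 and 64584 and to 129076 and 139122. Their part in the 4 differences was not tested.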

How the results depend on the processing

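The main count of 108 probe sets became 25 with no filter, where more probe sets were tested, among them 5849 at the floor on all 8 arrays with no spread, and 51 with eBayes without trend. It was 164 with 4 group means, 45 with no time covariate, 58 with the 24 h contrast alone and 133 with the 72 h contrast alone, and it ranged from 47 to 68 without 1 sample. Other settings gave 72 to 155, the replicate block 98. The share called higher was 74.07%, and 88% with no filter, 88.24% without trend, 91.38% at 24 h and 63.16% at 72 h. The count of 9 for the change between times became 14 with a floor at the 60th percentile, 20 with probe sets above the floor on 4 arrays, 123 with no filter, 4 without trend, 23 adjusted within each table, 8 with the replicate block and 0 to 5 without 1 sample, where 1735 to 2451 probe sets had an unadjusted p below 0.05. The causes of these moves were not tested. Of 50 called named genes 23 kept their call in every fit without 1 sample, 11 in all other settings but the times alone, and 10 in both. At 24 h alone Cyp2f2 (0.65), Fam25c (1.01) and Krt4 (0.28), and at 72 h alone Acta1 (-0.68) and Scgb1a1 (-0.085), and at 1 of the times Clca1, Timp1, Il5 and Sftpc, had the sign opposite to their difference over both times; none of these was called over both times. On version 2 A at 72 h, added after seeing the data as was the fit of A and B alone, the sign was opposite to that over both times for Cd37 (-0.0085), Col1a1 (0.17), Sftpc (3.74), Mcpt1 (0.69), Cyp2f2 (0.20) and Acta1 (-0.86, of the same sign as the -0.68 at 72 h on the first version); the causes were not tested. Signals near the floor limit what falls can show.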
